A study of Mus musculus with 4 samples.

Results

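The 39 genes described here are interferon-stimulated genes, taken by name from a fixed list that covers antiviral effectors, nucleic acid sensors, GTPases, chemokines and the transcription factors of the response. All 39 matched a gene among the 35275 identifiers measured. RNA was sequenced from lung tumours of Balb/c mice that were wild type (Nrf2 +/+) or lacked Nrf2 (Nrf2 -/-), with 2 libraries per genotype. Every mouse, controls included, had received the carcinogen vinyl carbamate at 16 mg/kg in 2 or 4 doses, and a library was made from 3 to 4 pooled tumours taken 40 to 44 weeks later. Doses, weeks and tumour numbers are not given by library, and neither are age and sex. Values are FPKM, reads scaled to the length of the gene and to the size of the library, and SD is over the 2 libraries of a genotype. The series design names 2 mice per genotype, and p-values measure the spread between these 4 pooled samples.

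Interferons are secreted proteins that alert cells to infection and that also shape immunity to tumours. Type I interferons bind the IFNAR receptor, whose kinases JAK1 and TYK2 activate a complex that holds STAT2 and IRF9. This complex binds the interferon-stimulated response element (ISRE) and induces genes such as Ifit, Oas and Isg15. Interferon gamma, made by T and natural killer cells, binds the IFNGR receptor and signals through JAK1 and JAK2. Its response runs through the gamma-activated site (GAS) and induces Irf1, Gbp and Cxcl9. Many genes answer to both kinds of interferon.

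Stretches upstream of the start of 6 members are shown, because they hold the letters by which both kinds of interferon response are usually recognised. The ISRE was searched as GAAA, any 2 bases and again GAAA, on both strands (TTTC, any 2 bases and TTTC on the other), and the GAS as TTCNNNGAA, which reads the same on both. Capitals mark the matches, and each stretch is written 5′ to 3′ on the strand of its gene, from RefSeq in GRCm38.p6. Isg15 lies on the minus strand at chr4:156200855-156200916 and has 3 overlapping ISRE matches. Ifit1 lies on the plus strand at chr19:34640765-34640833 and has 2. Rsad2 (minus strand, chr12:26456543-26456592) and Gbp2 (plus strand, chr3:142620584-142620633) have 1 each. Igtp (plus strand, chr11:58199491-58199551) has 1 ISRE and 1 GAS match, and Irf1 (plus strand, chr11:53769904-53769952) has 1 GAS match.
Isg15: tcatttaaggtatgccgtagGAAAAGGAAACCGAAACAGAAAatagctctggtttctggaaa
Ifit1: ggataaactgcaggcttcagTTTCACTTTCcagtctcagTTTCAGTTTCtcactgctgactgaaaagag
Rsad2: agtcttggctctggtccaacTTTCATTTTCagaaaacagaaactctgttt
Gbp2: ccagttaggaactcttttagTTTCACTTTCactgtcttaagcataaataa
Igtp: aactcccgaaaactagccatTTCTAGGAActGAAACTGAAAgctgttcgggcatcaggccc
Irf1: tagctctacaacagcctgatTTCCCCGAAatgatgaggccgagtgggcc

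Promoter entries matched 30 members by symbol, and the 250 bases before a start held an ISRE match in 15 of them and a GAS match in 7. Among all 27025 genes with an entry, the shares were 3.46% and 8.13%. Of the type I class defined below, 5 of 8 genes with an entry held an ISRE match and 2 a GAS match. Of the interferon gamma class, 3 of 5 held an ISRE match and 2 a GAS match, so that the letters did not separate the classes. All 5 GTPase genes with an entry (Gbp2, Gbp3, Gbp7, Igtp and Irgm1) held an ISRE match. These matches describe letters only, and no binding was measured.

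Nfe2l2, which encodes Nrf2, was at 96.3 and 87.9 FPKM in wild type 1 and 2 and at 3.66 and 2.96 FPKM in knockout 1 and 2, with an adjusted p of 0.000378 by limma. The alveolar epithelial markers Sftpc and Nkx2-1 were present in all 4 libraries, at 75159 to 90474 and 198 to 238 FPKM. They were among 4 of 6 such markers whose groups overlapped. Napsa lay above in knockout, at 217 and 160 FPKM in wild type 1 and 2 against 260 and 473 FPKM in knockout 1 and 2. Sftpb lay below, at 13969 and 14463 against 13069 and 10566 FPKM, and neither gene was called. Library totals ran from 16.89 to 21.66 M reads (1 M is 1e6), and members had between 8 and 2136 recovered reads in a library.

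Levels of the 39 genes spanned a wide range in these tumours. By mean FPKM over the 4 libraries, 12 genes were at 10 or more, 20 between 1 and 10, and 7 under 1. Ifitm2, a membrane protein that blocks virus entry, had the highest mean (165 FPKM, 150 to 191), followed by its relative Ifitm3 (88.0 FPKM, 51.7 to 125) and the transcription factor Irf1 (45.5 FPKM, 41.1 to 50.1). The ranges of these 3 genes did not overlap. Next came Bst2 (36.6 FPKM, 30.7 to 41.3), which overlapped Irf1, and Isg20 (25.8 FPKM, 18.4 to 29.7), which did not overlap Bst2. Ddx58, Irf9 and Ifi27l2a had means of 17.6, 16.8 and 16.3 FPKM with overlapping ranges. Cxcl9, a chemokine induced by interferon gamma, was the lowest, with a mean of 0.311 FPKM (0.13 to 0.651).

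**Figure D1:**
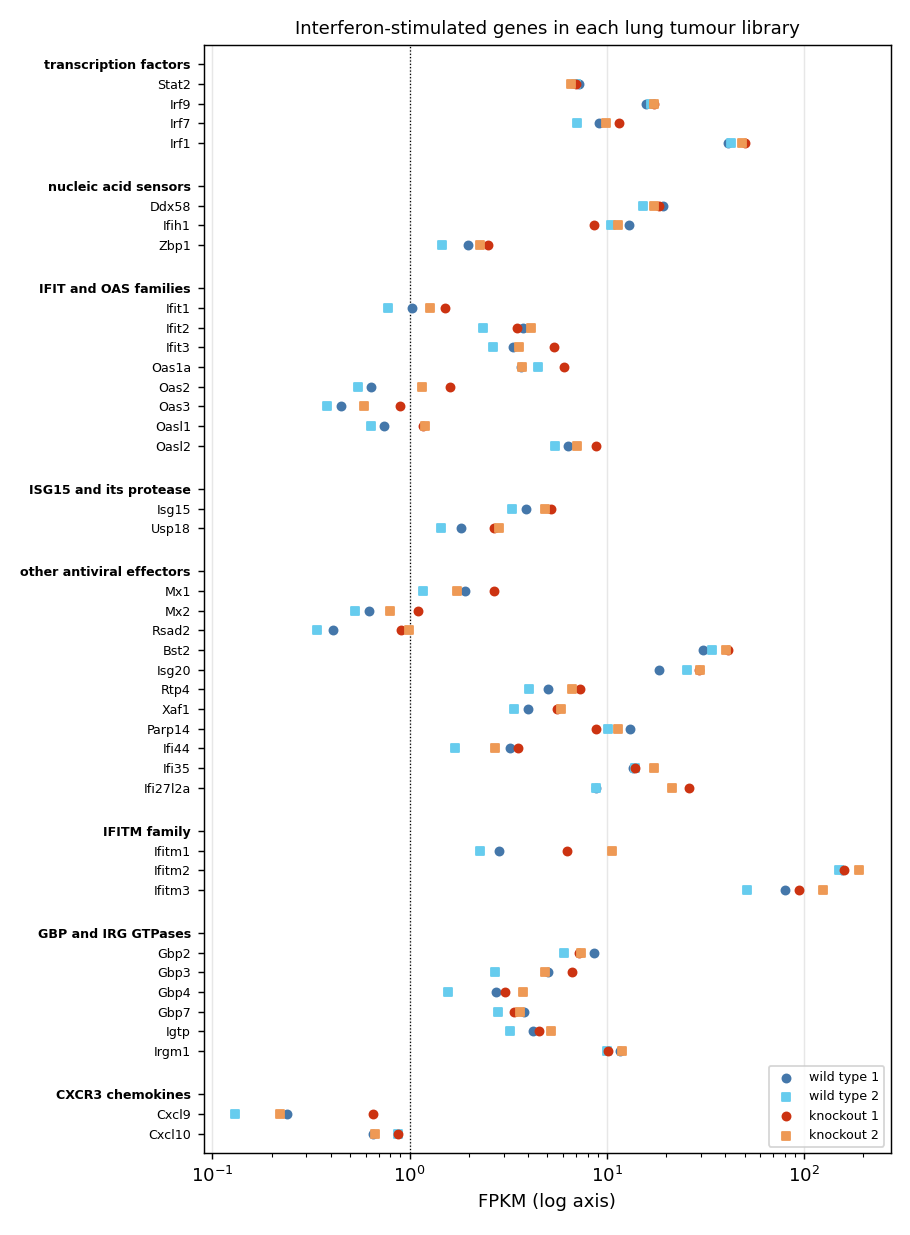
FPKM of the 39 genes (log axis) in each of the 4 libraries, grouped by role, with circles for replicate 1 and squares for replicate 2, blue for wild type and red or orange for knockout. The dotted line is at 1 FPKM. Wild type 2 is the lowest library for 28 genes, and 24 genes have both knockout libraries above both wild-type libraries.

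Of the 39 genes, 1 was called, Ifi27l2a, which was higher in knockout tumours. Across all 13147 genes tested, 0.0761% were called higher, 0.038% lower and 0.114% in either direction. Both knockout libraries lay above both wild-type libraries for 24 of the 39 genes and below them for 0, while 15 overlapped. Of all genes above 0, 22.4% lay above and 19.3% below, and of the tested genes 22.7% and 25.4%. In the fit with no filter on low values, which holds all 39, 11 had a limma unadjusted p under 0.05, all with higher levels in knockout, against 6.76% of its 21601 genes.

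Of the 39 genes, 34 passed the filter, and 2 of them, Oas2 and Oasl1, passed only through the knockout libraries. The 34 had a median log2 fold change of 0.33 on the log2(FPKM + 1) scale (0.32 over all 39), where all tested genes had 0.00. The fold changes were positive for 31 and negative for 3, Ifih1, Parp14 and Stat2. A limma unadjusted p under 0.05 was reached by 11 of the 34, all with higher levels in knockout, while 8.36% of all tested genes reached it with higher and 7.01% with lower levels. That count was 4 without wild type 2, 6 without knockout 1 and 13 without wild type 1.

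**Figure D2:**
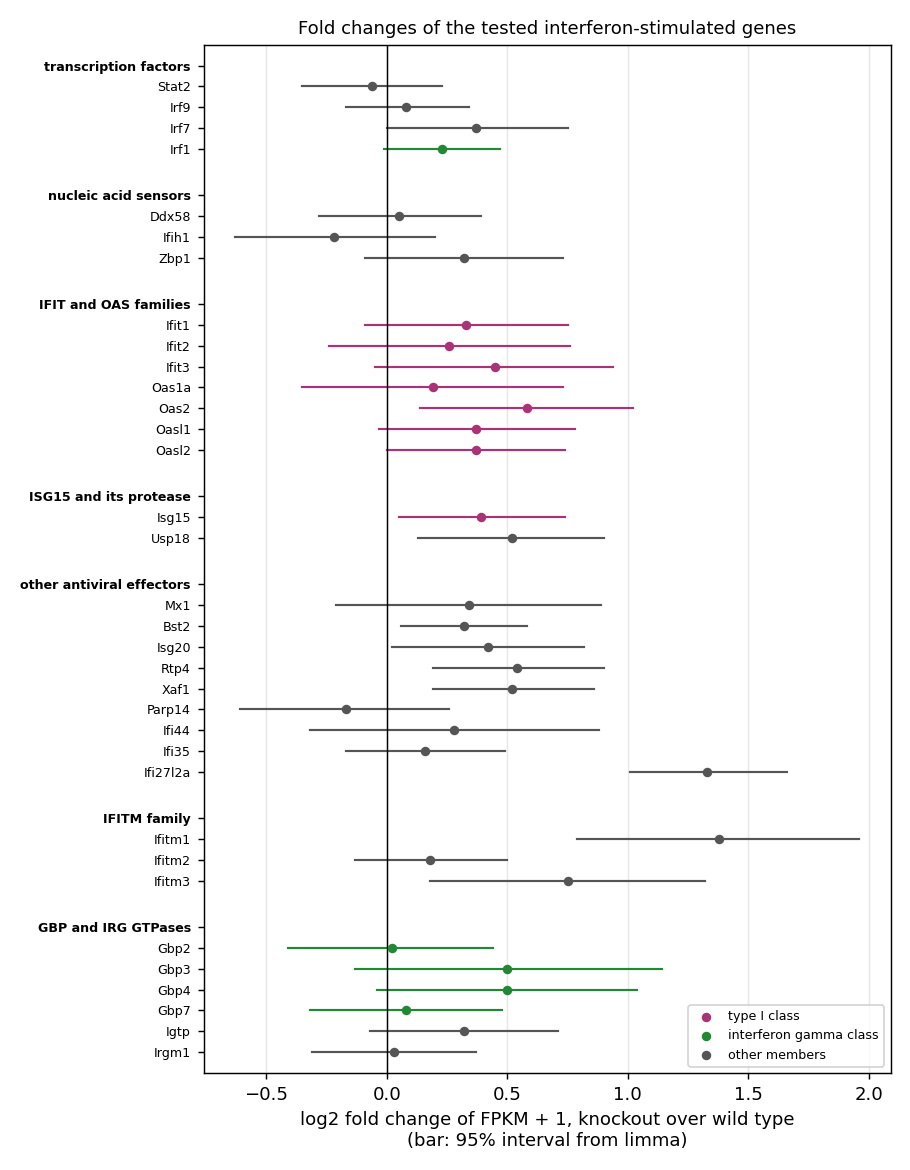
Log2 fold change of FPKM + 1 (knockout over wild type) of the 34 tested genes, with 95% intervals from limma, grouped by role and coloured by class. Ifi27l2a and Ifitm1 lie farthest to the right, at 1.33 and 1.38, and most other intervals include 0.

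Ifi27l2a encodes a small interferon-induced membrane protein (chromosome 12, 103442167 to 103443680). It was at 8.78 and 8.85 FPKM in wild type 1 and 2 and at 26.3 and 21.4 FPKM in knockout 1 and 2. The knockout libraries were clearly apart from the wild-type libraries, which were nearly equal. Its mean went from 8.82 ± 0.0565 to 23.8 ± 3.51 FPKM (SD, n = 2 each), 2.70 times as high, with a log2 fold change of 1.33 ± 0.13 (SE; limma adjusted p = 0.0455). The call was lost without wild type 1 (limma adjusted p = 0.106) and without wild type 2 (0.133), and over the alternatives run for this gene, all but the block of crossed replicate numbers, the adjusted p ran from 0.0123 to 0.296. From 88 and 87 reads in wild type 1 and 2 and 219 and 167 in knockout 1 and 2, the ratio scaled to library totals was 2.71 (95% exact counting interval 2.26 to 3.26).

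Markers of several immune cells lay higher in the same libraries. The T cell markers added up to 13.3, 13.4, 32.1 and 37.1 FPKM in wild type 1, wild type 2, knockout 1 and knockout 2. All 8 markers had both knockout libraries above both wild-type libraries, with Cd8a lowest in level at 0.08 to 0.3 FPKM. Neutrophil markers added up to 24.9 and 26.7 against 91.9 and 92.4 FPKM, with 4 of 6 above and S100a8, S100a9 and Csf3r called. Ly6g, which defines mouse neutrophils, was at 0.07 and 0.15 FPKM in wild type and listed at 0 in both knockout libraries. B and plasma cell markers added up to 39.2 and 38.5 against 51.8 and 63.4 FPKM (4 of 5 above), and natural killer and cytotoxic markers to 3.31 and 2.85 against 7.08 and 6.59 FPKM (5 of 6 above). Red blood cell markers added up to 244 and 486 against 1186 and 1084 FPKM (4 of 4 above). Of all genes above 0, 22.4% had both knockout libraries above both wild-type libraries and 19.3% had both below. Among all tested genes, 0.0761% were called higher. In bulk samples, more cells of a type and more RNA per cell cannot be told apart, and the part of these cells in the interferon values was not tested.

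The IFITM genes, clustered on chromosome 7 and active against virus entry, all had both knockout libraries above both wild-type libraries. Of all tested genes, 22.7% did so. Ifitm1 (140967221 to 140969825) was at 2.86 and 2.27 FPKM in wild type 1 and 2 and at 6.28 and 10.7 FPKM in knockout 1 and 2. Its mean was 3.30 times as high in knockout tumours, the largest log2 fold change of the tested members at 1.38 ± 0.24 (SE), and it missed the threshold (limma adjusted p = 0.12). It was called without knockout 1 (log2 fold change 1.72, limma adjusted p = 0.0122).

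Ifitm3 was at 80.1 and 51.7 against 94.7 and 125 FPKM, with a log2 fold change of 0.75 ± 0.23 (limma adjusted p = 0.246), which was 0.44 without wild type 2 and 1.06 without wild type 1. Ifitm2 was at 157 and 150 against 160 and 191 FPKM, 1.14 times as high in knockout (95% interval of the log2 fold change -0.13 to 0.50). For Ifitm3 the libraries were ordered wild type 2, wild type 1, knockout 1 and knockout 2. The summed endothelial markers were also lowest in wild type 2 (44.0 FPKM) and highest in knockout 2 (123 FPKM), and wild type 1 (91.8 FPKM) exceeded knockout 1 (73.4 FPKM). The summed fibroblast markers had the same order, at 157 FPKM in wild type 2, 214 in knockout 1, 222 in wild type 1 and 309 in knockout 2. The part of endothelial cells and fibroblasts in the Ifitm3 values was not tested. The IFITM genes are similar in sequence, so that reads may have been shared among them.

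None of the Ifit genes was called. Ifit1, Ifit2 and Ifit3 encode proteins that bind foreign RNA and lie in a cluster on chromosome 19. Ifit3 was at 3.36 and 2.65 FPKM in wild type 1 and 2 and at 5.42 and 3.60 FPKM in knockout 1 and 2 (log2 fold change 0.45 ± 0.20, limma adjusted p = 0.369). Ifit1 was at 1.03 and 0.78 against 1.51 and 1.27 FPKM. The Ifit3 value was 0.20 without knockout 1 and 0.69 without knockout 2. For Ifit2 the groups overlapped, at 3.78 and 2.36 against 3.5 and 4.11 FPKM. Wild type 2 was the lowest library for each of the 3 genes.

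The OAS genes on chromosome 5 encode enzymes that make a messenger molecule from ATP on sensing double-stranded RNA, or relatives of these enzymes. Oas2, which passed the filter only through the knockout libraries, was 2.34 times as high in knockout (limma adjusted p = 0.247). It was at 0.64 and 0.55 FPKM in wild type 1 and 2 and at 1.61 and 1.16 FPKM in knockout 1 and 2. Oas3, which did not pass the filter, was at 0.45 and 0.38 against 0.90 and 0.59 FPKM. Both groups were apart for these genes, as for Oasl1 (0.74 and 0.64 against 1.17 and 1.2 FPKM) and Oasl2 (6.34 and 5.48 against 8.85 and 7.07 FPKM). Oas1a overlapped, at 3.67 and 4.50 against 6.08 and 3.71 FPKM, and its log2 fold change of 0.19 turned to -0.11 without knockout 1. Oas1a has close copies, as does Ifit3, so that their reads may have been split.

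Isg15 encodes a ubiquitin-like protein that is attached to other proteins, and Usp18 the protease that removes it and damps the IFNAR receptor. Isg15 (chromosome 4, 156199424 to 156200818) was at 3.91 and 3.30 FPKM in wild type 1 and 2 and at 5.22 and 4.85 FPKM in knockout 1 and 2. Its log2 fold change was 0.39 ± 0.14 (SE), with a limma unadjusted p of 0.0307 and an adjusted p of 0.28. Usp18 was at 1.83 and 1.44 against 2.67 and 2.84 FPKM, 1.69 times as high (limma unadjusted p = 0.0162, adjusted p = 0.241). For both genes the groups did not overlap.

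Rsad2, which encodes the antiviral enzyme viperin (chromosome 12, 26442746 to 26456452), was at 0.41 and 0.34 FPKM in wild type 1 and 2 and at 0.91 and 0.99 FPKM in knockout 1 and 2. No library reached 1 FPKM, so the gene was not tested over the filtered genes. With no filter its log2 fold change was 0.51 ± 0.09 (limma unadjusted p = 0.00365, adjusted p = 0.329). From 25 and 20 reads in wild type 1 and 2 and 46 and 47 in knockout 1 and 2, the scaled ratio was 2.54 (95% exact counting interval 1.76 to 3.71).

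The chemoreceptor transporter Rtp4 and the apoptosis-associated Xaf1 had the smallest unadjusted p after Ifi27l2a and Ifitm1 among the 34 members that passed the filter. Rtp4 was at 5.02 and 4.04 FPKM in wild type 1 and 2 and at 7.36 and 6.70 FPKM in knockout 1 and 2, 1.55 times as high (limma adjusted p = 0.203). Xaf1 was at 4.01 and 3.37 against 5.59 and 5.86 FPKM, also 1.55 times as high (limma adjusted p = 0.198). In both cases the groups were apart and wild type 2 was lowest.

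Bst2, or tetherin, holds budding virus at the cell surface, and Isg20 is an RNA-degrading exonuclease. Bst2 was at 30.7 and 34.2 FPKM in wild type 1 and 2 and at 41.3 and 40.2 FPKM in knockout 1 and 2 (limma unadjusted p = 0.0238, adjusted p = 0.261). Isg20 was at 18.4 and 25.6 against 29.3 and 29.7 FPKM (limma adjusted p = 0.307). For both genes the groups were apart, and wild type 1, not wild type 2, was the lowest library.

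The dynamin-like GTPases Mx1 and Mx2 are known for blocking viral replication, and whether they do so in these mice was not measured. Mx1 was at 1.91 and 1.17 FPKM in wild type 1 and 2 and at 2.69 and 1.75 FPKM in knockout 1 and 2, so that the groups overlapped. Mx2 was at 0.62 and 0.53 against 1.11 and 0.80 FPKM and did not pass the filter. Ifi44 (3.24 and 1.70 against 3.54 and 2.71 FPKM) and Ifi35 (13.6 and 14.0 against 13.9 and 17.3 FPKM) overlapped as well. Parp14, an ADP-ribosyltransferase, had its highest value in wild type 1, at 13.1 and 10.1 FPKM in wild type against 8.81 and 11.4 FPKM in knockout (95% interval of the log2 fold change -0.61 to 0.26).

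None of the 3 sensors of viral nucleic acid was called. Ddx58, which encodes the RNA sensor RIG-I, was at 19.3 and 15.3 FPKM in wild type 1 and 2 and at 18.4 and 17.4 FPKM in knockout 1 and 2 (95% interval of the log2 fold change -0.28 to 0.39). Ifih1, which encodes the RNA sensor MDA5, was at 13.0 and 10.5 against 8.64 and 11.4 FPKM (interval -0.63 to 0.20). Zbp1, a sensor of Z-form nucleic acid that can trigger cell death, was at 1.98 and 1.46 against 2.5 and 2.28 FPKM, with the groups apart (limma adjusted p = 0.419).

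Among the transcription factors, Stat2 and Irf9, parts of the type I complex, had the smallest log2 fold changes, -0.06 and 0.08, with intervals that included 0. Stat2 was at 7.25 and 6.95 FPKM in wild type 1 and 2 and at 6.96 and 6.60 FPKM in knockout 1 and 2 (interval of the log2 fold change -0.35 to 0.23), and Irf9 at 15.9 and 16.7 against 17.3 and 17.4 FPKM (-0.17 to 0.34). Irf7, which amplifies the production of type I interferon, was at 9.11 and 7.09 against 11.5 and 9.95 FPKM (log2 fold change 0.37 ± 0.15, limma adjusted p = 0.33, and 0.21 without wild type 2). Irf1, which acts downstream of interferon gamma, was at 41.1 and 42.6 against 50.1 and 48.5 FPKM (0.23 ± 0.10, limma adjusted p = 0.345). For Irf7, Irf1 and Irf9 the knockout libraries lay above the wild-type libraries by less than the test required.

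GBP and IRG proteins are GTPases that attack the vacuoles of intracellular microbes and are strongly induced by interferon gamma. Gbp2 was at 8.66 and 6.07 FPKM in wild type 1 and 2 and at 7.26 and 7.45 FPKM in knockout 1 and 2, with equal means of 7.36 FPKM (interval of the log2 fold change -0.41 to 0.44). Gbp7 was at 3.79 and 2.82 against 3.37 and 3.64 FPKM, and Irgm1 at 11.7 and 10 against 10.2 and 12 FPKM. In all 3 genes wild type 1 lay within or above the knockout libraries.

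The knockout libraries lay above both wild-type libraries for 2 of the 6 GTPases, and for 22.7% of all tested genes. Gbp4 was at 2.76 and 1.56 FPKM in wild type 1 and 2 and at 3.04 and 3.77 FPKM in knockout 1 and 2, with an adjusted p of 0.356 by limma. Igtp was at 4.24 and 3.24 against 4.54 and 5.24 FPKM (limma adjusted p = 0.409). Gbp3 overlapped, at 5.05 and 2.70 against 6.65 and 4.88 FPKM. Wild type 2 was the lowest library for all 6, and without it the log2 fold changes of Gbp2, Gbp7 and Irgm1 were -0.21, -0.09 and -0.07. The GBP genes form a family with similar sequences, and shared reads could have been split among them.

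Cxcl9 and Cxcl10, which attract T cells through the receptor CXCR3, were both under 1 FPKM in every library and were not tested over the filtered genes. Cxcl9 was at 0.24 and 0.13 FPKM in wild type 1 and 2 and at 0.65 and 0.22 FPKM in knockout 1 and 2, so that its higher knockout mean rested on knockout 1. Cxcl10 was at 0.65 and 0.87 against 0.87 and 0.67 FPKM. From 10 and 13 reads in wild type 1 and 2 and 11 and 8 in knockout 1 and 2, its scaled ratio was 1.02, with a 95% exact counting interval of 0.523 to 1.95.

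Genes induced mainly by type I interferon were set beside genes induced mainly by interferon gamma. The type I class holds the 3 Ifit and 5 Oas genes above and Isg15, and the interferon gamma class holds Cxcl9, Irf1, Gbp2, Gbp3, Gbp4 and Gbp7. Both knockout libraries lay above both wild-type libraries for 7 of 9 type I genes and for 2 of 6 interferon gamma genes, where 22.4% of all genes above 0 did so. The median ratio of mean FPKM, knockout over wild type, was 1.5 (1.2 to 2.34) for the type I class and 1.33 (0.999 to 2.38) for the interferon gamma class. On the log2(FPKM + 1) scale the medians were 0.37 over 8 tested type I genes and 0.23 over 5 tested interferon gamma genes (0.37 and 0.25 over all 9 and 6). Of the 8, Oas2 and Oasl1 passed the filter only through the knockout libraries, as none of the 5 did.

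The distance between the class medians, 0.14, depended on the processing. It was 0.28 with a pseudocount of 0.1, -0.05 with 10 and 0.03 with quantile normalization, and ran from 0.10 without knockout 1 to 0.23 without wild type 1. Mean levels ran from 0.581 to 6.94 FPKM in the type I class and from 0.311 to 45.5 FPKM in the interferon gamma class. The SD of the distance between replicate libraries was 0.09. The distance is a description of these genes, and no test of it was made.

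The order of the libraries within each class is a description, with no test. Relative to each gene's mean over the 4 libraries, the medians of type I genes (log2) were -0.10, -0.27, 0.28 and 0.09 in wild type 1, wild type 2, knockout 1 and knockout 2. Interferon gamma genes had 0.06 and -0.22 against 0.14 and 0.07. Both knockout medians lay above both wild-type medians in either class, in the interferon gamma class by 0.07 against 0.06 at the closest. Without wild type 2, the median ratio was 1.34 for type I genes, with 9 of 9 above 1, and 1.17 for interferon gamma genes, with 4 of 6 above 1. Without wild type 1 it was 1.70 and 1.69 over all 9 and 6 genes, the latter counting Cxcl9 at 0.13 FPKM in wild type 2. On the log2(FPKM + 1) scale the medians of the tested genes without wild type 1 were 0.47 and 0.24, so that the measures differed there.

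**Figure D3:**
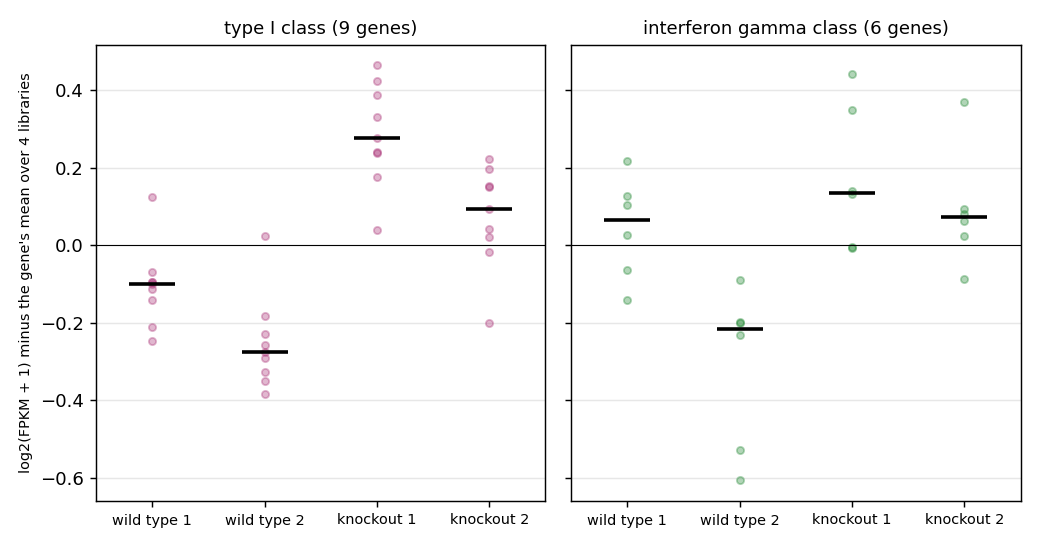
Log2(FPKM + 1) of each gene minus its mean over the 4 libraries, for the 9 type I genes and the 6 interferon gamma genes, with 1 point per gene and a black bar at the median. In the type I class both wild-type medians (-0.10 and -0.27) lie below both knockout medians (0.28 and 0.09), and in the interferon gamma class wild type 2 (-0.22) lies lowest while wild type 1 (0.06) and knockout 2 (0.07) are nearly level.

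Wild type 2 stood apart for the set as a whole. It was the lowest library for 28 of the 39 genes, against 19.7% of all tested genes, and wild type 1 was above it for 31 of the 39, against 50.5% of all tested genes. Wild type 2 was also the lowest library for all 6 monocyte and macrophage markers, all 4 endothelial markers and all 4 fibroblast markers. The sum of the monocyte and macrophage markers was nearly all Lyz2 and does not describe the other markers. Lyz2 was at 9798, 9247, 17198 and 11979 FPKM in wild type 1, wild type 2, knockout 1 and knockout 2. Both knockout libraries lay above both wild-type libraries for Ccr2 (log2 fold change 0.88, limma adjusted p = 0.158), Ly6c2 (0.36, 0.262) and Lyz2 (0.59, 0.483). Csf1r, Adgre1 and Cd68 overlapped, with 0.07, -0.03 and 0.08. The part of these cells in the order of the libraries was not tested.

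The ligands of the pathway were at or near 0. Of 21 interferon genes, 19 were listed at 0 in all 4 libraries, among them Ifnb1 and every Ifna gene of the list. Ifng had 2 and 1 reads in wild type 1 and 2 and 4 and 2 in knockout 1 and 2, or 0.04 to 0.18 FPKM. Ifnk, which encodes interferon kappa, had 2 and 1 reads against 0 and 0. No difference of ligands was detectable at this depth. Plasmacytoid dendritic cells are a main source of type I interferon. Of their 6 markers, Siglech was at 0.85 to 1.66 FPKM, Ccr9 at 0.11 to 0.37 and Klk1 at 0.26 to 1.22, each with both knockout libraries above both wild-type libraries. The member Bst2 (30.7 to 41.3 FPKM) lay above as well, while Tcf4 (13.3 to 26.4 FPKM) and Cox6a2 (23.7 to 41.1 FPKM) overlapped. This made 4 of 6 above, where 22.4% of all genes above 0 did so. Ccr9 and Klk1 did not pass the filter and had only 7 to 19 and 5 to 18 recovered reads in a library.

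Receptors and signalling proteins gave 0 calls, where 0.114% of all tested genes were called in either direction. None of the 6 receptor genes had a limma unadjusted p under 0.05. That threshold was reached by 8.36% of all tested genes with higher and by 7.01% with lower levels. Ifnar1 was at 29.4 and 28.3 FPKM in wild type 1 and 2 and at 28.3 and 30.4 FPKM in knockout 1 and 2 (interval of the log2 fold change -0.23 to 0.27). Ifnar2 was at 30.5 and 31.1 against 33.1 and 37.4 FPKM, Ifngr1 at 76.1 and 74.7 against 78.1 and 85.4 FPKM, and Ifngr2 at 37.3 and 39.4 against 45.1 and 45.9 FPKM (limma unadjusted p = 0.0525, adjusted p = 0.332). The epithelial receptor chain Ifnlr1 and its partner Il10rb had intervals of -0.48 to 0.25 and -0.17 to 0.34.

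The kinases Jak1, Jak2 and Tyk2 had log2 fold changes of -0.01, 0.09 and -0.03. Stat3, which serves interleukin-6 signalling, was at 191 and 159 against 139 and 149 FPKM (limma adjusted p = 0.395). Of the 9 inhibitors, Usp18 alone had a limma unadjusted p under 0.05, which 8.36% of all tested genes reached with higher levels. Socs1, which blocks the kinases, was at 3.41 and 4.33 against 4.38 and 7.67 FPKM (log2 fold change 0.49 ± 0.25, limma adjusted p = 0.401), and Pias1 was at -0.19 ± 0.15.

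Of 21 genes of nucleic acid sensing and interferon induction, 18 were tested, 0 were called, and 3 higher and 1 lower had a limma unadjusted p under 0.05. Of all tested genes, 8.36% reached it with higher and 7.01% with lower levels. Aim2, a sensor of cytosolic DNA, was at 4.23 and 3.52 FPKM in wild type 1 and 2 and at 6.48 and 5.74 FPKM in knockout 1 and 2, with an adjusted p of 0.198 by limma. Dhx58, a relative of RIG-I, was at 7.05 and 4.89 against 8.72 and 8.14 FPKM, and Irf8, a factor of myeloid cells, at 20.4 and 21.5 against 24.5 and 26.5 FPKM. Tlr8 was lower in knockout, at 16.6 and 13.2 against 11.4 and 9.49 FPKM (limma adjusted p = 0.258). Ikbke and Trim25 had log2 fold changes of 0.56 ± 0.23 and -0.21 ± 0.11 (SE). Trex1, which degrades cytosolic DNA, was listed at 0 in all 4 libraries.

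**Figure D4:**
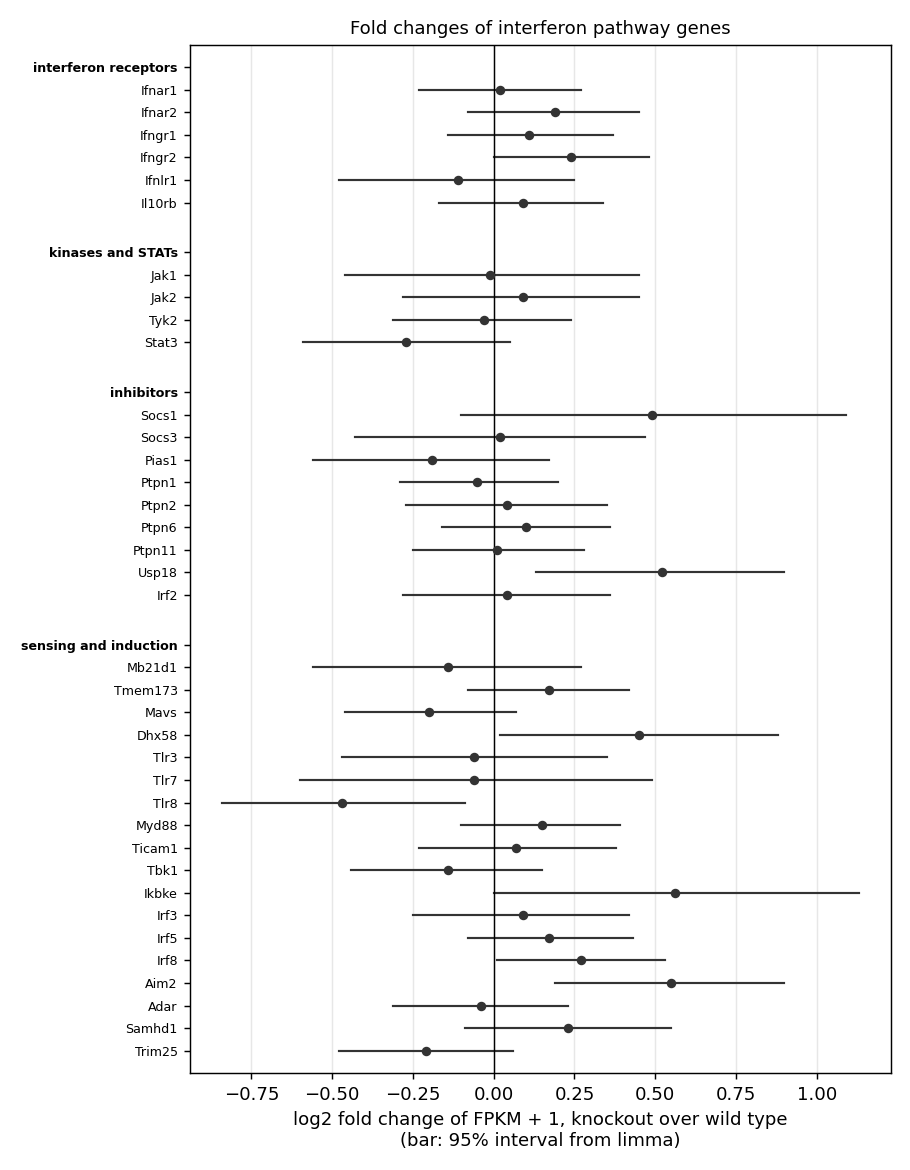
Log2 fold change of FPKM + 1 (knockout over wild type), with 95% intervals from limma, of the tested receptors, kinases and STATs, inhibitors, and genes of sensing and induction. The intervals of all 6 receptors, the 3 kinases and Stat3 reach 0 or below, and that of Tlr8 lies below 0 (-0.84 to -0.09).

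Interferon-induced genes outside the 39 were counted from a list of 53 that leaves out genes of the pathway lists above. Gbp5, Gbp6 and Gbp10 of this list were not analysed here. Of 46 tested, 0 were called. The unadjusted p by limma was under 0.05 for 13, each with higher levels in knockout, against 8.36% of all tested genes. Their median log2 fold change was 0.23. The T cell chemokine Ccl5 was at 1.92 and 1.57 FPKM in wild type 1 and 2 and at 5.19 and 3.95 FPKM in knockout 1 and 2, with an adjusted p of 0.119 by limma. The lymphocyte growth regulator Slfn1 was at 0.54 and 0.53 against 1.58 and 1.94 FPKM (limma adjusted p = 0.14), having passed the filter only through the knockout libraries, and its relative Slfn2 at 7.41 and 8.21 against 12 and 12.1 FPKM. The immunoproteasome subunits Psmb8 and Psmb9 were 1.40 and 1.42 times as high in knockout tumours (limma adjusted p = 0.167 and 0.156), and the GTPase Tgtp2 2.17 times (0.202). For these 6 genes the groups did not overlap. Ccl5 and the Slfn genes are also expressed by lymphocytes, whose markers lay higher in the same libraries. The part of these cells in the values of Ccl5 and the Slfn genes was not tested.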

How the data were processed

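RNA sequencing of lung tumours gave 4 libraries, 2 per genotype, grouped by the sample titles. The authors deposited FPKM per gene. The submitters' processing notes name the build mm10 and the tools TopHat2 and DESeq2, with no version and no role. The sources used here do not give the counter, annotation, gene lengths, filters or use of strand. Reads of near-identical or overlapping genes may therefore have been split or dropped.

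Of 35275 identifiers, 34490 matched a GENCODE symbol of GRCm38, the assembly of mm10. Whole reads were recovered from FPKM for 21600 of 21601 genes above 0, by searching for a gene length that turns the values of all 4 libraries into whole numbers (tolerance 0.0005 reads). The length was an annotated one for 8 of the 39 members and otherwise the smallest that fitted, so that reads of the other 31 may be undercounted by a whole factor. The implied library totals are 21.66, 21.22, 17.98 and 16.89 M reads (1 M is 1e6) in wild type 1, wild type 2, knockout 1 and knockout 2.

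Values were tested as log2(FPKM + 1) by limma 3.58.1 (R 4.3.3), with the prior variance following the mean level. The fit took the 13147 genes that reached 1 FPKM in 2 libraries or more. P-values were adjusted by Benjamini-Hochberg over all of them, and genes with an adjusted p under 0.05 were called. Residual degrees of freedom were 2 and those of the prior 4.12. The fit was also run on simulated data, with larger changes than any tested member showed and with noise independent between genes. That run does not speak to calls at the fold changes of the members. An exact two-sided permutation test of 2 against 2 libraries could not go below 0.333. Intervals for ratios of reads are exact at 95% and cover counting error only, since reads carry no molecular identifiers. Alternatives were quantile normalization, no trend, no filter, a minimum of 5 FPKM, a pseudocount of 0.1 or of 10, a block for the replicate number, broader gene classes and leaving out each library. Limma-voom on recovered reads and a block of crossed numbers were added after seeing the data.

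Same-numbered libraries are not said to share an animal, litter or day. The members and all gene lists were chosen with earlier results of these data known. All 39 members are named, with Nfe2l2 and fixed genes of the pathway (Ifng, Ifnb1, Ifnar1, Ifnar2, Ifngr1, Ifngr2 and Socs1), and 1 gene of the rule is not reported here. Each other pathway list and the list of other interferon-induced genes add up to 6 tested genes by smallest unadjusted p, and marker lists add genes at the extremes or at 0. Other markers (Cd8a, Siglech, Tcf4, Cd68, Ly6c2, S100a8, Csf3r, Csf1r, Lyz2, Sftpc and Nkx2-1) were chosen after their values were seen. Promoter sequences are from RefSeq (GRCm38.p6).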

Additional observations from a re-analysis of the deposited data

How the results depend on the processing

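The count of called members, 1 in the reported fit, was 0 with quantile normalization, without the intensity trend, with no filter, with a pseudocount of 10 and with limma-voom on recovered reads, and ran from 0 to 2 as each library was left out. At an unadjusted p under 0.05 the members numbered 4 to 13 over the left-out libraries, against 11. Ifi27l2a kept its direction in every alternative run for it (all but the crossed block), with an adjusted p of 0.0736 with quantile normalization, 0.0743 without the trend, 0.296 with no filter, 0.07 with a pseudocount of 10 and 0.101 with limma-voom. The median of the type I class, 0.37, was 0.51 with a pseudocount of 0.1, 0.09 with 10 and 0.53 with limma-voom. Its distance from the interferon gamma class, 0.14, was 0.03 with quantile normalization, 0.28 with a pseudocount of 0.1, -0.05 with 10 and 0.29 with limma-voom. Broader classes left the medians at 0.37 and 0.23, and at an FPKM of at least 5 they rested on 1 and 3 genes. Among single members, all uncalled, the sign turned as each library was left out, with ranges of -0.05 to 0.60 for Ifi44, -0.10 to 0.21 for Ddx58, -0.21 to 0.24 for Gbp2, -0.09 to 0.24 for Gbp7, -0.08 to 0.14 for Irgm1 and -0.11 to 0.48 for Oas1a, and for Gbp2 also with quantile normalization (-0.01). The causes were not tested, apart from the pseudocount, which by construction shrinks changes of low genes. With the replicate number as a block, 1 member was called and 9 had an unadjusted p under 0.05, and calls over all genes went from 15 to 69. The numbers are not known to pair the samples: deviations of same-numbered libraries had a correlation of -0.31, and crossed numbers as a block gave 848 calls, 3 of them members. Members with few reads, such as Cxcl9, Cxcl10, Oas3 and Rsad2, are limited by depth.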
